A study of Mus musculus with 2 samples.

Results

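The genes described here take up, bind, store, break down, export or make lipid. They were 35 named genes, chosen for these known roles and not for their values, out of 26981 genes listed in either library. Cells came from the visceral adipose tissue (VAT, epididymal fat) of 15-week-old wild-type C57BL/6 mice kept specific pathogen-free. One library was made from mice on normal water (NW) and one from antibiotic-treated mice (ABX), whose gut microbiota the treatment was meant to deplete. In both, cells carrying CD45, the pan-leukocyte surface protein, were enriched with magnetic beads and captured with their surface-antibody tags on the BD Rhapsody microwell system. The labels name neither the antibiotics nor the number of mice behind each library.

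Each condition was therefore 1 library, and no test of a difference between conditions was possible. Intervals given below are 95% intervals of counting error only, and a ratio of ABX to NW compares these 2 libraries. After filtering, 12474 NW and 12724 ABX cells were kept, with a median of 5092 and 3845.5 unique molecular identifiers (UMIs, counts of single captured molecules) per cell. The libraries shared 196 barcodes among kept cells, or 1.57% of the NW cells, and leaving these out changed no count of called members by over 1.5 times. All 35 genes were listed for NW and 34 for ABX, in which Apoc2 was not listed. Together they held 1.33% of the gene UMIs in NW and 1.17% in ABX.

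Cell classes were rebuilt from marker genes after the lipid genes had been taken out of the clustering genes. There were 5774 NW and 5063 ABX macrophage-like cells, 734 and 579 monocyte-like cells, 1718 and 1239 dendritic cell (DC)-like cells, 3598 and 5030 lymphocyte-like cells and 311 and 466 endothelial-like cells. All 8 macrophage markers, among them C1qa, Adgre1, Mrc1 and Cd68, were detected in the macrophage-like cells of both libraries. The monocyte-like class was named from 3 detected markers and mixes several states. On re-clustering, 38 NW and 38 ABX of its cells fell in a monocyte state. The endothelial-like and 9 and 94 fibroblast-like cells showed that the CD45 enrichment did not leave leukocytes alone. The endothelial-like class also held macrophage RNA, and clusters drawn on RNA alone kept 109 NW and 234 ABX endothelial-like cells. Values from those clusters are given below for Cd36, Fabp4 and the ratios of ABX to NW. Levels are given as CPM, for which the UMIs of a gene, summed over the cells of a class, were divided by all gene UMIs of that class and scaled to a fixed total. They are compared for the same gene between classes or libraries, never between genes.

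Macrophages of fat depots clear the lipid that adipocytes release. Fatty acids and lipoproteins enter through scavenger receptors such as CD36 or after lipoprotein lipase has cut triglyceride outside the cell, cholesteryl ester is cut in the lysosome by the acid lipase LIPA, and free cholesterol is moved out of the lysosome by NPC1 and NPC2. Surplus lipid is re-esterified into droplets coated by perilipins or exported as cholesterol to apolipoproteins through ABCA1 and ABCG1, which the oxysterol receptors LXR induce. Sterol and fatty acid synthesis is switched on by the SREBP transcription factors when cell cholesterol is low. Capillary endothelium carries fatty acids from blood into fat with CD36 and FABP4.

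The 250 bases before the start of 3 genes are shown because these genes differed between macrophage-like states: the lysosomal lipase gene Lipa was high in the lipid-associated and Hmox1 states, the droplet gene Plin2 was high in the Hmox1 state, and the efflux gene Abca1 was low in the lipid-associated state. Sequences are RefSeq promoter windows on build GRCm38.p6, written 5′ to 3′ on the strand of the gene. Plin2 lies at chr4:86648386-86670060, Lipa at chr19:34492318-34527474 and Abca1 at chr4:53030787-53159895, all on the minus strand (GENCODE M21, GRCm38), and the windows are chr4:86670060-86670309, chr19:34527475-34527724 and chr4:53159896-53160145. Capitals mark a match to 1 of 4 searched motifs.
Plin2: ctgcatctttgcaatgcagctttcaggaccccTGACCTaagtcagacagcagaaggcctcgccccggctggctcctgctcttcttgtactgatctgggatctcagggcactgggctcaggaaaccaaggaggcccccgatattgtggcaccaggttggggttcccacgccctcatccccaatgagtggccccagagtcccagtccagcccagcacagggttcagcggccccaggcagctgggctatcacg
Lipa: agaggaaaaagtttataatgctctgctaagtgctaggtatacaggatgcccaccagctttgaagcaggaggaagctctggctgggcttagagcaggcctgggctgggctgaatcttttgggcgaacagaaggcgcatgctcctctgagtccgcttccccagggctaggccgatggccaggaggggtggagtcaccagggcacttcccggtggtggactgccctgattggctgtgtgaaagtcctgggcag
Abca1: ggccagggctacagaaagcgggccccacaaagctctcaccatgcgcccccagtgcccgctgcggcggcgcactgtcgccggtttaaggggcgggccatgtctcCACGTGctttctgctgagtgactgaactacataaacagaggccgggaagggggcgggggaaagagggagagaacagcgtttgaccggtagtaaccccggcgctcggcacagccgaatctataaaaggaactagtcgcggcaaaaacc
The Plin2 window held TGACCT, which reads as the nuclear receptor half-site AGGTCA on the other strand, with its first base 218 bases before the start. The Abca1 window held the E-box CACGTG 147 bases before the start, and the Lipa window held none of the 4. Searched on both strands in 32851 windows, without overlap between motifs being considered, AGGTCA was found in 14% of windows, CACGTG in 6.02%, the antioxidant response core TGACNNNGC in 10.2% and the sterol response core TCACNCCAC in 1.05%. Of the 23 members with a window, 7 held AGGTCA, 3 held CACGTG, 2 held TGACNNNGC and 2 held TCACNCCAC. A member counted if any of its windows held the motif, so these counts cannot be set against the shares of single windows. These letter matches describe the windows and do not show binding.

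Uptake genes were highest in macrophage-like, monocyte-like and endothelial-like cells. Cd36 stood at 4830 CPM (4808 to 4853) in NW and 4484 CPM (4456 to 4511) in ABX macrophage-like cells, against 5605 and 7989 CPM in endothelial-like cells and no more than 749 and 758 CPM in any DC-like, lymphocyte-like or neutrophil-like class. In endothelial-like clusters drawn on RNA alone, which hold less macrophage RNA, Cd36 was at 11493 and 12338 CPM. A Cd36 UMI was seen in 97.1% of NW and 94.3% of ABX macrophage-like cells. B cell-like cells, shown for comparison, had a Cd36 UMI in 53.6% and 44.2%. Their median depths were 4198 and 3994 UMIs, against 5647 and 4083 in macrophage-like cells. With every cell thinned to 1000 UMIs the shares were 89.5% and 86.4% in macrophage-like and 20.7% and 16.7% in B cell-like cells.
Lpl, the lipase that frees fatty acids from lipoprotein triglyceride, reached 270 CPM in NW and 210 CPM in ABX macrophage-like cells and 1585 and 558 CPM in monocyte-like cells. It was seen in 41.5% and 29.8% of macrophage-like cells (15.9% and 12.7% after thinning), and in 8.02% and 4.65% of B cell-like cells (2.17% and 1.38%). The macrophage scavenger receptor gene Msr1 was highest in macrophage-like cells, at 262 and 256 CPM. Lrp1, a receptor for remnant lipoproteins, was highest in monocyte-like cells at 275 and 193 CPM, against 180 and 171 CPM in macrophage-like cells. Scarb1, the high-density lipoprotein receptor, showed another order, with 15.4 and 14.4 CPM in macrophage-like cells but 96.7 and 89.5 CPM in type 1 conventional DC (cDC1)-like cells and 95.2 and 155 CPM in endothelial-like cells.

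The fatty acid binding proteins divided between cell classes. Fabp4, the adipocyte and capillary form, was at 71.6 CPM in NW and 126 CPM in ABX macrophage-like cells and at 5639 and 11282 CPM in endothelial-like cells. In endothelial-like clusters drawn on RNA alone Fabp4 was at 18832 and 21437 CPM. Fabp5 was at 29.7 and 28.9 CPM in macrophage-like cells and at 2534 (2453 to 2617) and 1677 CPM (1571 to 1788) in mature DC-like cells, which were named from Ccr7, Fscn1 and other genes of DCs that travel to lymph nodes. In that class 83.4% of NW and 82.2% of ABX cells had a Fabp5 UMI, against 4.01% and 1.48% of B cell-like cells. The 2 acyl-CoA synthetases among the members, which activate fatty acids, were at 36.7 and 50.9 CPM (Acsl1) and 69.1 and 79.8 CPM (Acsl4) in macrophage-like cells. Acsl1 was highest in neutrophil-like cells, at 288 and 173 CPM, from 40 and 19 UMIs in 63 and 57 cells.

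**Figure D1:**
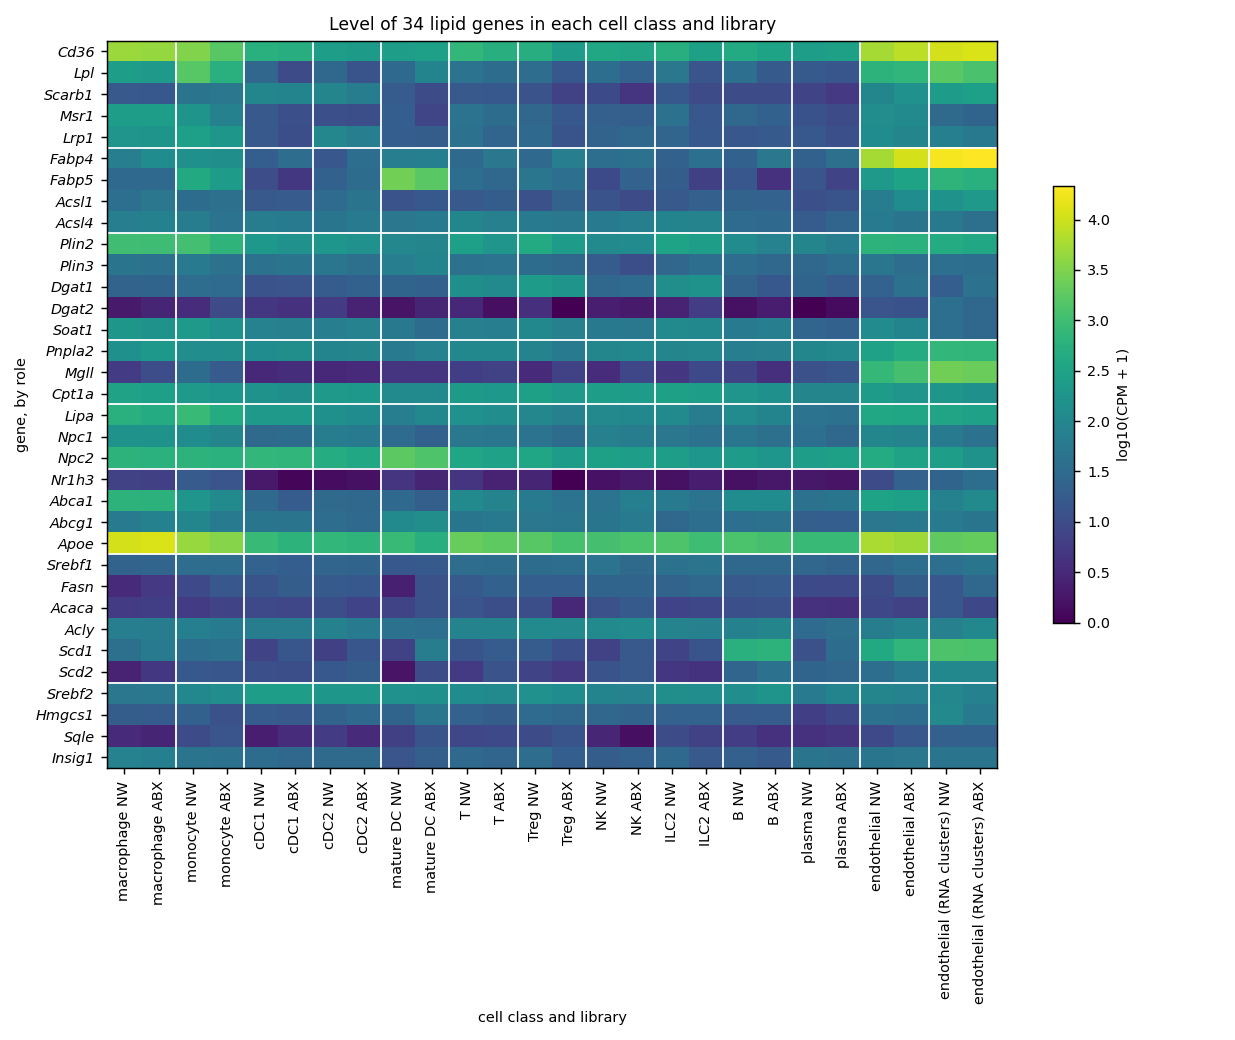
Level of the lipid genes (log scale, CPM) in each cell class, with NW and ABX values side by side and genes grouped by role. Endothelial-like cells carry the highest Cd36, Fabp4 and Mgll, macrophage-like cells the highest Apoe and Abca1, and mature DC-like cells the highest Fabp5 and Npc2, in both libraries.

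Among storage genes, Plin2, which coats lipid droplets, was at 1001 CPM (991 to 1012) in NW and 952 CPM (939 to 964) in ABX macrophage-like cells. It was seen in 90.2% and 85.3% of them (57.4% and 55.7% after thinning) and in 23.8% and 19.4% of B cell-like cells (6.98% and 5.93%). Soat1, which esterifies cholesterol for storage, was at 195 and 165 CPM in macrophage-like cells, and the droplet protein gene Plin3 at 45.2 and 42.5 CPM.
Dgat1, which makes the last step of triglyceride synthesis, was higher in T cell-like and ILC2-like cells than in macrophage-like cells: 244 CPM (221 to 270) in NW and 177 CPM (141 to 219) in ABX regulatory T (Treg)-like cells, 142 and 111 CPM in other T cell-like cells and 139 and 159 CPM in group 2 innate lymphoid cell (ILC2)-like cells, against 23.0 and 23.8 CPM in macrophage-like cells. The other enzyme of that step, Dgat2, had only 39 and 42 UMIs in macrophage-like cells and was highest in neutrophil-like cells, from 18 and 16 UMIs. ABX neutrophil-like cells had Dgat1 at 183 CPM, a value as high as that of Treg-like cells, but from 20 UMIs.

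Lipolysis and oxidation genes differed in how widely they ranged over the classes. Cpt1a, which admits fatty acids to mitochondria, ranged from 86.5 CPM in neutrophil-like to 317 CPM in macrophage-like cells in NW. In ABX it ranged from 93.0 CPM in plasma cell-like to 301 CPM in neutrophil-like cells, with 279 CPM in macrophage-like cells. The neutrophil-like values came from 12 and 33 UMIs. Pnpla2, the first triglyceride lipase of the droplet, was at 147 and 203 CPM in macrophage-like cells, within a range of 57.1 to 447 CPM in NW and 58.2 to 459 CPM in ABX. Mgll, which ends triglyceride breakdown by cutting monoglyceride, was at 4.97 and 9.41 CPM in macrophage-like cells and 751 and 1136 CPM in endothelial-like cells, the widest gap of the 3.
Of the lysosomal genes, Lipa was highest in monocyte-like cells, at 831 and 467 CPM, with 560 and 461 CPM in macrophage-like cells. Npc1 was at 169 and 168 CPM in macrophage-like cells, its highest class. Npc2, which hands cholesterol to NPC1, was highest in mature DC-like cells at 1767 CPM (1699 to 1836) and 1396 CPM (1300 to 1498), with 628 and 585 CPM in macrophage-like cells.

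Of the efflux genes, Apoe and Abca1 were highest in macrophage-like cells, and Abcg1 and Nr1h3 were higher elsewhere. Apoe, the apolipoprotein that accepts exported cholesterol, was at 11374 CPM (11339 to 11409) in NW and 12079 CPM (12034 to 12124) in ABX macrophage-like cells, and 99.5% and 99.3% of them had a UMI. Apoe UMIs were also in 86.2% and 80.9% of B cell-like cells, or 49.3% and 43.2% after thinning, so a UMI of Apoe did not mark a macrophage-like cell. Abca1 was at 623 CPM (615 to 631) and 608 CPM (598 to 618) and Abcg1 at 62.6 and 80.0 CPM in macrophage-like cells. Abcg1 stood at 114 and 135 CPM in mature DC-like cells, and at 137 and 219 CPM in neutrophil-like cells, there from 19 and 24 UMIs. Nr1h3, which encodes LXR alpha, was at 6.26 and 5.65 CPM in macrophage-like and 16.8 and 13.1 CPM in monocyte-like cells, and Apoc2 had 1 UMI in NW macrophage-like cells.

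Synthesis genes were mostly higher in other classes than in macrophage-like cells. Scd1, which desaturates fatty acids, was at 39.0 and 61.5 CPM in macrophage-like cells but at 555 CPM (521 to 591) and 627 CPM (604 to 650) in B cell-like cells, of which 78.2% and 83.1% had a UMI. Acly, which makes cytosolic acetyl-CoA, was at 70.8 and 64.6 CPM in macrophage-like cells and highest in natural killer (NK) cell-like cells at 117 and 120 CPM. Acaca (4.91 and 5.25 CPM) and Srebf1 (23.1 and 24.5 CPM) were low in macrophage-like cells, while Fasn and Scd2 had fewer than 200 UMIs there over both libraries.
The sterol regulator Srebf2 was at 52.0 and 54.1 CPM in macrophage-like cells and at 265 CPM (255 to 275) and 268 CPM (256 to 280) in cDC1-like cells, its highest class. Insig1, which holds the SREBP complex in the endoplasmic reticulum, was highest in macrophage-like cells at 81.8 and 72.8 CPM. Hmgcs1, an early enzyme of cholesterol synthesis, was at 17.9 and 17.1 CPM, and Sqle, a later one, at 79 and 41 UMIs, too few to be counted.

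Over 14 classes, the class with the highest level was the same in both libraries for 17 of the 35 members: 5 in macrophage-like (Msr1, Npc1, Abca1, Apoe and Insig1), 3 in endothelial-like (Cd36, Fabp4 and Mgll), 3 in neutrophil-like (Acsl1, Dgat2 and Abcg1), 2 in monocyte-like (Lrp1 and Lipa), 2 in mature DC-like (Fabp5 and Npc2), 1 in cDC1-like (Srebf2) and 1 in NK cell-like cells (Acly). The 3 neutrophil-like values rest on 16 to 40 UMIs each.

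Macrophage RNA was found in every lymphocyte class, so levels there were set against it. The 8 macrophage markers stood in T cell-like cells at a median of 17.1% and at most 19.5% of their macrophage-like level in NW, and at a median of 13.6% and at most 15.1% in ABX, and the median share in the other lymphocyte classes ran from 4.99% (plasma cell-like, ABX) to 11.5% (Treg-like, NW). Cd36 in T cell-like cells was at 15.5% and 12.04% of its macrophage-like level, Apoe at 18.2% and 15.2%, Msr1 at 16.3% and 12.7% and Abca1 at 18.4% and 14.1%. In both libraries these members lay within or below the range of the markers, or above it in only 1, and their UMIs there cannot be told apart from carried-over macrophage RNA.
Of 32 members compared, 26 lay above the marker range in both libraries in T cell-like cells (95.5% of 10857 genes), 25 in Treg-like (91% of genes), 27 in NK cell-like (93.2%), 25 in ILC2-like (94.6%), 25 in B cell-like (91.7%) and 24 in plasma cell-like cells (91.3%). Most genes lay above this range, so these counts do not set the members apart as lymphocyte genes. Dgat1 in Treg-like cells was at 1063% and 744% of its macrophage-like level, and Plin2 there at 44.3% and 26.0%. In B cell-like cells Plin2 was at 12.01% and 8.72%, within the marker range, while Abca1 was above it at 20.5% and 20.8%.

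**Figure D2:**
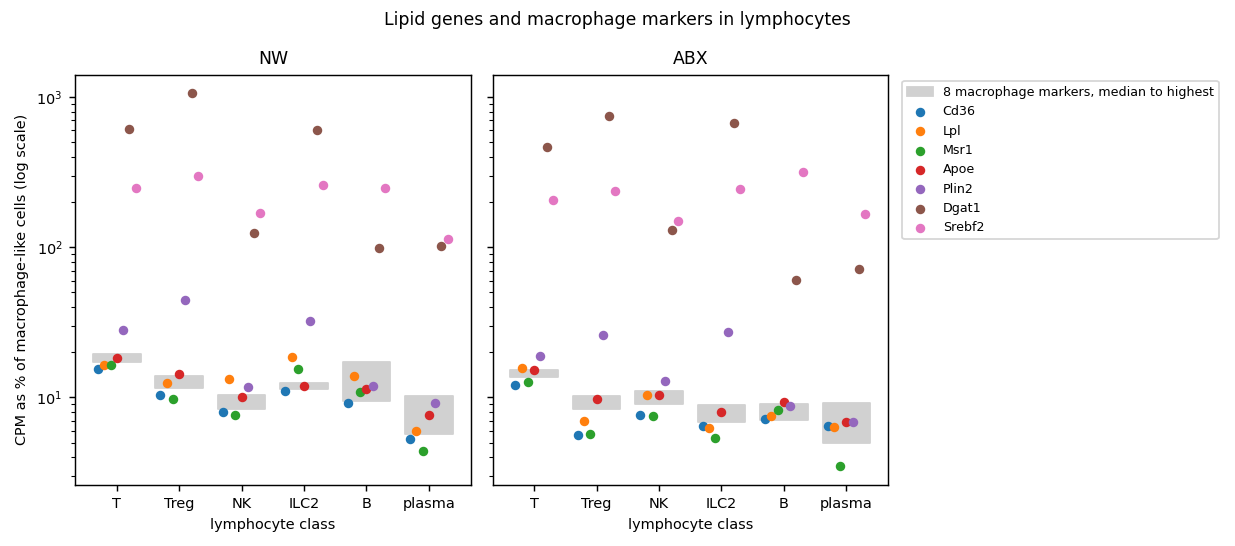
Level of 7 lipid genes in lymphocyte classes as a percentage of their level in macrophage-like cells (log scale), for NW and ABX, with a band from the median to the highest of 8 macrophage markers. Cd36, Lpl, Msr1 and Apoe lie in or near the band, and Dgat1 and Srebf2 lie above it.

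Re-clustering of the macrophage-like and monocyte-like cells separated states, again without the lipid genes. The lipid-associated state was named from the list Trem2, Gpnmb, Spp1, Cd9, Mmp12, Atp6v0d2, Ctsk and Itgax, of which 7 were detected. Its leading genes also held Fn1, Ear2 and Lyz1 of the monocyte list. The state held 294 NW and 112 ABX cells, with a median of 3061.5 and 2082.5 UMIs. Most of them, 204 in NW and 84 in ABX, belonged to the monocyte-like class. A member was called where it was past 2-fold against the other states in each library. Here and below, the other states are the remaining macrophage states. The Cd209c Flt3 state described below, the monocyte state, unnamed cells and cells with markers of other lineages were left out of them. Called as higher were 7 of 30 members, where 3.22% of 10044 genes were. Each state and gene comes from cells that were clustered on other genes of the same cells, so these counts are a description.
Fabp5 was at 735 against 26.8 CPM in NW (log2 4.78, 4.66 to 4.90) and 937 against 25.1 CPM in ABX (log2 5.22, 5.03 to 5.41). Lpl was at 2768 against 283 CPM in NW and 1731 against 225 CPM in ABX, or log2 3.29 and 2.94. Mgll was at 62.0 against 4.83 CPM and 64.6 against 9.11 CPM, or log2 3.68 and 2.82. The other 4 were Fabp4 (log2 1.85 and 1.59), Lipa (1.16 and 1.59), Nr1h3 (1.45 and 1.74, from 36 and 9 UMIs) and Scarb1 (1.27 and 1.03, from 65 and 12 UMIs). They thus spanned uptake, binding, lysosomal and lipolytic genes.
Abca1 went the other way, at 200 against 648 CPM in NW and 129 against 637 CPM in ABX (log2 -1.70 and -2.30), and was the 1 member of 30 called as lower, where 6.4% of genes were. Apoe was also under its level in the other states, with log2 differences of -1.02 and -0.87. Cd36 differed little, by log2 -0.01 and -0.20, and Plin2 by 0.63 and 0.74. Sqle had 27 and 9 UMIs in this state, log2 2.70 and 3.79 above the others, and was not counted.

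A second state was led by Hmox1, Srxn1 and Clec4d, of which the first 2 encode enzymes of the oxidative stress response, and held 244 NW and 161 ABX cells. Called as higher were 5 of 30 members (1.12% of genes), and 0 as lower (4.28% of genes). Plin2 was at 2293 against 1007 CPM in NW (log2 1.19) and 1936 against 964 CPM in ABX (log2 1.01), its highest level in any state. Lipa was at 1220 against 588 CPM and 1163 against 468 CPM, and Lpl at 1352 against 368 CPM and 1114 against 213 CPM. The remaining 2 were Fabp5 (log2 1.61 and 2.29) and Nr1h3 (60 and 21 UMIs). Cd36 was at 8161 and 8264 CPM, against 4851 and 4502 CPM elsewhere, and Abca1 was at 699 and 722 CPM, unlike in the lipid-associated state. These cells formed no state of their own at a coarser resolution of 0.3, and 3 members were called at a resolution of 1.0 and 2 when the lipid genes were kept among the clustering genes.

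**Figure D3:**
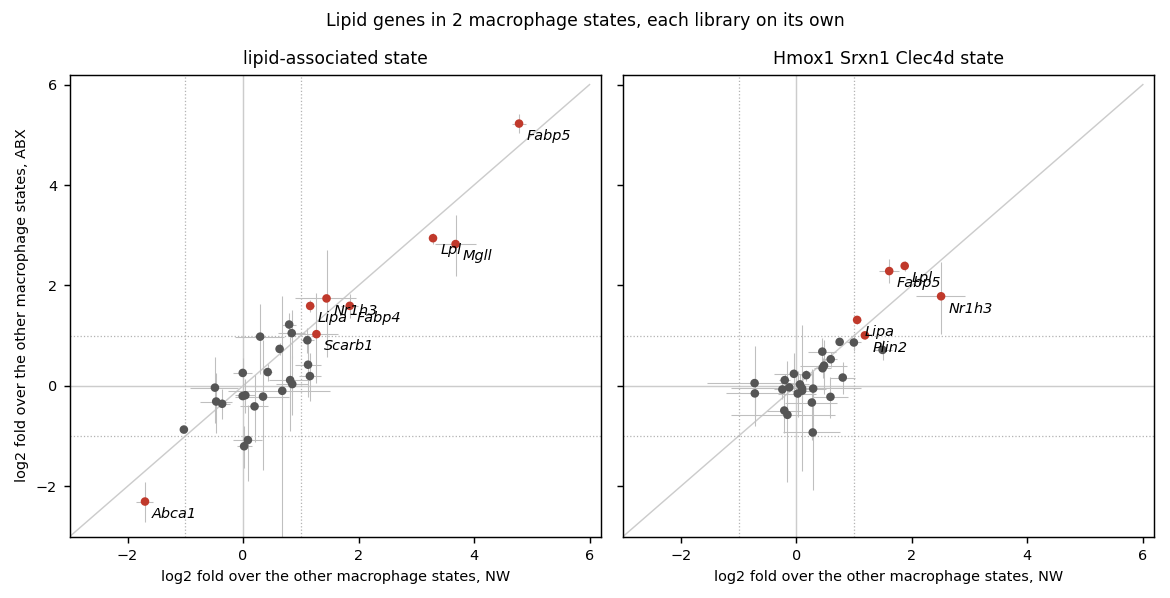
Difference of each lipid gene between a macrophage-like state and the other macrophage states, as defined in the text (log2, in NW and in ABX). In the lipid-associated state Fabp5, Mgll and Lpl lie furthest above 0 and Abca1 furthest below, and in the Hmox1 state Nr1h3, Lpl, Fabp5, Plin2 and Lipa lie furthest above 0 among the called genes.

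The largest state in NW was marked by Lyve1, which tissue-resident perivascular macrophages carry, with 2419 NW and 1192 ABX cells. It had 3 of 30 members called as lower, Lpl, Fabp5 and Mgll (3.46% of genes), and 0 as higher (0.707% of genes). Lpl was at 208 against 630 CPM in NW and 139 against 309 CPM in ABX. Cd36 was at 5996 and 6436 CPM, above the 3981 and 3856 CPM of the other states but under 2-fold.
A state with Cd209c and Flt3 among its leading genes matched the marker list of type 2 conventional DCs (cDC2), by 4 markers. It had 317 NW and 325 ABX cells with a low median of 1515 and 1320 UMIs. Its summed macrophage markers were at 4678 and 2135 CPM, against 19813 and 17670 CPM in the macrophage-like class. In this Cd209c Flt3 state 13 of 30 members were called as lower (14.8% of genes) and 0 as higher (10.3% of genes). Cd36 was at 1120 against 5008 CPM in NW and 420 against 4677 CPM in ABX, and Apoe at 2216 and 1478 CPM. Abca1 was at 117 and 55.6 CPM, under its level in the lipid-associated state. A state led by Ccl12, Cx3cr1 and Il1b, with 546 NW and 707 ABX cells, had Cd36 at 1558 and 1849 CPM and Apoe at 14039 and 14595 CPM. It is called by these genes and not as inflammatory, because the leading genes of its main cluster also held Dcn, Col1a2 and Col1a1, which fibroblasts express, and the summed fibroblast markers in it were at 339 and 651 CPM. The part of fibroblast RNA in its values was not tested.

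**Figure D4:**
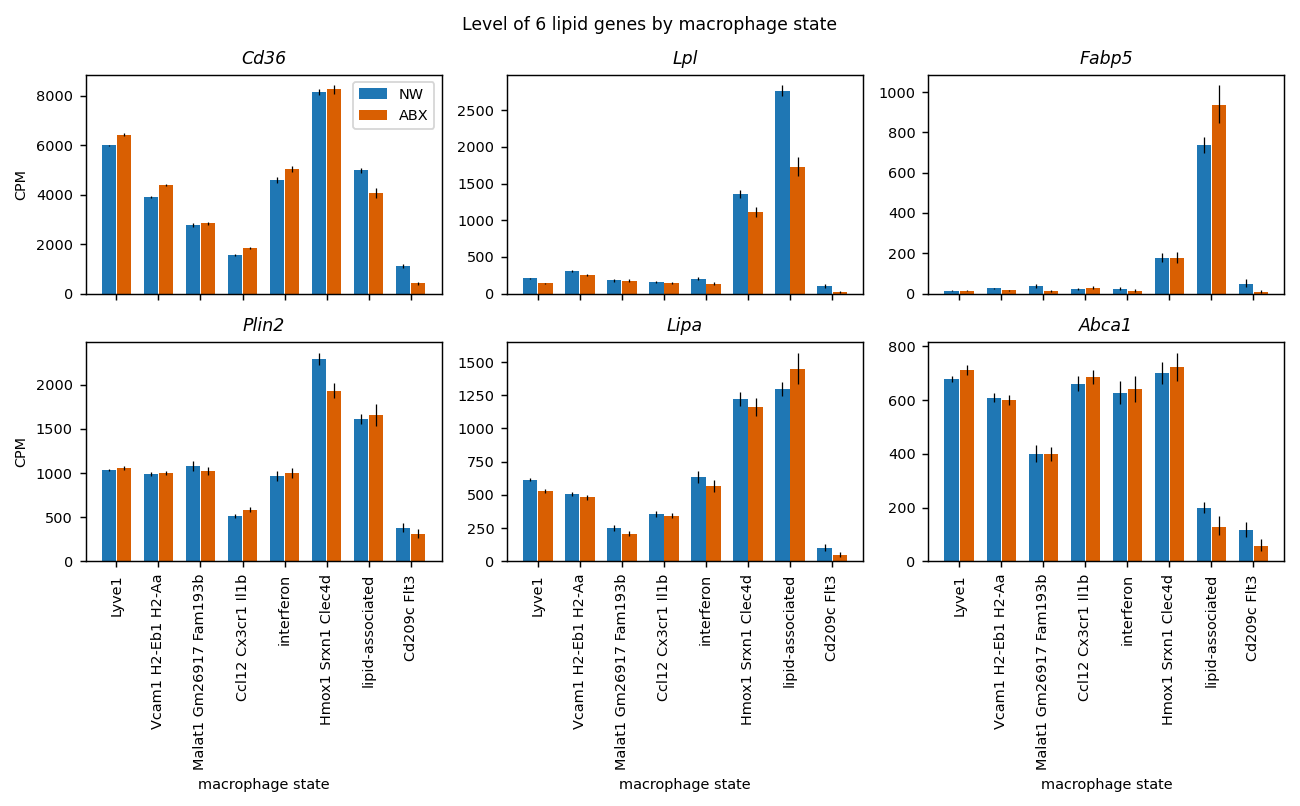
Level (CPM, linear axis) of 6 lipid genes in 8 states of NW and ABX, as bars with 95% counting intervals. Lpl and Fabp5 peak in the lipid-associated state, Plin2 and Cd36 in the Hmox1 state, and Abca1 is lower in the Malat1, Cd209c Flt3 and lipid-associated states than in the Lyve1 state.

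Between ABX and NW, the lipid genes of macrophage-like cells differed little. Past 1.5-fold, 0 of 30 members were lower (1.12% of 10180 genes) and 3 were higher (3.33% of genes), and the median log2 ratio was -0.04 over members and 0.01 over all counted genes. Apoe differed by log2 0.09, Abca1 by -0.04, Plin2 by -0.07 and Cd36 by -0.11. Lpl differed by log2 -0.36 (-0.41 to -0.31) and Lipa by -0.28. With clusters drawn on RNA alone, which move more lipid-associated cells into the class, Lpl was called as lower at log2 -0.74, with 411 CPM in NW and 247 CPM in ABX.
The 3 called members were Fabp4, at 71.6 and 126 CPM (log2 0.82, 0.74 to 0.89), Mgll, at 177 and 215 UMIs (log2 0.92, 0.63 to 1.22), and Scd1, at 39.0 and 61.5 CPM (log2 0.66, 0.55 to 0.77). Pnpla2 was at 147 and 203 CPM, under 1.5-fold (log2 0.47). All 4 are also expressed by adipocytes or fat endothelium, and beside them in the same cells the summed adipocyte markers stood at 108 CPM in NW and 138 CPM in ABX, the endothelial markers at 17.3 and 30.5 CPM and the fibroblast markers at 41.0 and 128 CPM, with no marker of the 3 lists at 0. Adipoq differed by log2 0.50, Car3 by 0.32 and the endothelial gene Egfl7 by 1.19. The part of carried-over RNA in the 3 calls was not tested. The shares of states in the class differed between the libraries. The Lyve1 state was 41.7% of it in NW and 23.5% in ABX. The state led by Malat1, with a low median of 1889.5 and 1823.5 UMIs, was 10.2% and 21.3%. With each macrophage state weighted by its NW share, Fabp4 and Mgll both stood at log2 0.69 and Scd1 at 0.41, under 1.5-fold. With clusters drawn on RNA alone Mgll was under 1.5-fold at log2 0.41, while Fabp4 and Scd1 stood at 0.73 and 0.71.
Within the Lyve1 state alone, 2 of 27 members, Fabp4 and Scd1, were called as higher (0.682% of genes) and 0 as lower (1.03% of genes). Fabp4 there was at 50.03 and 89.01 CPM (log2 0.83) and Scd1 at 24.2 and 37.2 CPM (log2 0.62). Fabp4 was also past 1.5-fold in the states led by Vcam1 and H2-Eb1, at 85.0 and 132 CPM, by Malat1, at 151 and 231 CPM, and by Ccl12, Cx3cr1 and Il1b, at 58.7 and 107 CPM beside the fibroblast markers given above. It was at 211 and 210 CPM in the Hmox1 state (log2 -0.01), and in the lipid-associated state at 258 and 383 CPM (log2 0.57), under 1.5-fold.

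The lipid-associated state was smaller in the ABX library, at 0.880% of all kept cells against 2.36% in NW. Of the 7 members called as higher in this state, 4 could be counted between the libraries (Lpl, Fabp5, Fabp4 and Lipa), and of these Lpl was called as lower in ABX. Of 17 counted members, 5 were lower (8.28% of genes) and 0 higher (3.29% of genes). Lpl was at 2768 CPM in NW and 1731 CPM in ABX (log2 -0.68, -0.79 to -0.56). Msr1 was at 274 and 117 CPM, and Plin3, Abca1 and Abcg1 had log2 ratios of -0.76, -0.63 and -0.61 from 24 to 54 ABX UMIs each. Fabp5 was at 735 and 937 CPM and Lipa at 1298 and 1452 CPM. The summed markers of the list that named the state were at 5725 and 3254 CPM.

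In monocyte-like cells 10 of 23 members were lower in ABX (5.93% of genes) and 0 higher (2.51% of genes), with a median log2 ratio of -0.51 over members and 0.00 over all genes. Lpl was at 1585 CPM in NW and 558 CPM in ABX (log2 -1.50, -1.60 to -1.41). Cd36 was at 3271 and 1615 CPM (log2 -1.02) and Msr1 at 171 and 78.8 CPM (log2 -1.11). The class mixes states, and their shares differed: lipid-associated cells were 27.8% (24.6 to 31.2) of it in NW and 14.5% (11.7 to 17.6) in ABX, and Cd209c Flt3 cells 31.5% and 45.3%. Cells with markers of other lineages were 13.1% of it in NW and 14.9% in ABX.
Fabp5 (log2 -0.85), Lipa (-0.83), Plin2 (-0.71), Abcg1 (-0.71), Abca1 (-0.64), Plin3 (-0.63) and Acsl4 (-0.60) were the others called. With each state weighted by its NW share, a choice added after seeing the data, 3 members were lower, and Fabp5 turned to log2 0.10.

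Over all DC-like cells, Fabp5 had the lowest ratio of ABX to NW of the counted members. Over the whole class 3 of 29 members were lower (1.8% of genes) and 2 higher (0.716% of genes). Fabp5 was at 274 CPM in NW and 112 CPM in ABX (log2 -1.29, -1.39 to -1.19). Mature DC-like cells, which carried most of it, were 175 of 1718 DC-like cells in NW and 73 of 1239 in ABX, and within them Fabp5 was at 2534 and 1677 CPM (log2 -0.60, -0.70 to -0.49). Under 200 UMIs, Fabp5 was lower in cDC1-like cells (95 and 28 UMIs). It was higher in cDC2-like cells (52 and 57 UMIs, log2 0.66, 0.10 to 1.23). In mature DC-like cells 2 of 7 members, Fabp5 and Apoe, were lower (2.33% of genes) and 0 higher (1.88% of genes). Apoe there was at 843 and 528 CPM, and the part of carried-over macrophage RNA in it was not tested.
Lpl (26.9 and 14.6 CPM, log2 -0.88) and Abca1 (log2 -0.62) were the other members lower over all DC-like cells, and Fabp4 (log2 0.70) and Scd1 (log2 1.37, from 90 and 151 UMIs) were higher. In cDC1-like cells 3 of 26 members were lower, Lpl (log2 -1.53), Abca1 (-0.77) and Lrp1 (-0.61), against 1.29% of genes, and 1 was higher, Fabp4 (0.91), against 0.471% of genes. With predicted doublets left out, Fabp5 (log2 -1.29) was the 1 member lower over all DC-like cells. The summed macrophage markers in cDC1-like cells were at 1422 CPM in NW and 944 CPM in ABX, and their part in these differences was not tested. Srebf2, the sterol regulator highest in this class, was at 265 and 268 CPM. Fabp4 was highest in endothelial-like cells, and over all kept cells it stood at 202 CPM in NW and 556 CPM in ABX. The part of carried-over endothelial RNA in its DC-like values was not tested.

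Over all lymphocyte-like cells, 5 of 32 members were lower (3.51% of genes) and 3 higher (1.95% of genes). Plin2 was at 249 CPM in NW and 157 CPM in ABX (log2 -0.67, -0.73 to -0.60), and Lpl, Fabp5, Msr1 and Lrp1 had log2 ratios of -0.89, -0.81, -0.63 and -0.63. The summed macrophage markers in the same cells were at 2459 and 1662 CPM, and their part in the values of Lpl, Msr1 and Lrp1 was not tested. With predicted doublets left out, Fabp5 (log2 -0.85) was the 1 member still called as lower, and Plin2 and Lpl stood at log2 -0.49 and -0.50. Fabp5 was called in no single lymphocyte class, and only T cell-like cells reached 200 UMIs of it (log2 -0.40). It was lower in B cell-like cells (25 and 14 UMIs) and ILC2-like cells (62 and 25 UMIs) and higher in NK cell-like cells (13 and 43 UMIs). The part of class shares in the pooled Fabp5 ratio was not tested.
Scd1 was at 65.6 and 141 CPM (log2 1.11). Among lymphocyte-like classes it was highest in B cell-like cells, which were 349 in NW and 947 in ABX, and within these Scd1 was at 555 and 627 CPM, under 1.5-fold. The other members higher over all lymphocyte-like cells were Fabp4 (log2 0.79) and Scd2 (log2 0.87). Over all kept cells Fabp4 stood at 202 CPM in NW and 556 CPM in ABX (log2 1.47), highest in endothelial-like cells. The part of carried-over endothelial RNA in its lymphocyte-like values was not tested.

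In Treg-like cells 2 of 9 counted members were lower in ABX (6.6% of genes) and 0 higher (2.51% of genes). Plin2 was at 444 CPM (412 to 477) in NW and 247 CPM (205 to 296) in ABX, a log2 ratio of -0.84 (-1.13 to -0.56), and was seen in 59.7% and 35.3% of cells, or 29.7% and 18.7% after thinning. In NW and ABX this was above the macrophage marker range. Cd36 was at 500 and 252 CPM (log2 -0.99), but within or below that range, beside summed macrophage markers of 2275 and 1478 CPM. There were 407 NW and 167 ABX Treg-like cells.
In other T cell-like cells 2 of 28 members were lower (2.35% of genes) and 1 higher (1.19% of genes). Plin2 was at 280 and 181 CPM (log2 -0.63), Lrp1 had a log2 ratio of -0.70, and Fabp4 one of 0.78. Lrp1 there was at 22.8% and 14.7% of its macrophage-like level, above the macrophage marker range in NW only.
In ILC2-like cells 4 of 21 members were lower, Lpl (log2 -1.94), Msr1 (-1.57), Cd36 (-0.89) and Lipa (-0.79), against 3.43% of genes, and 1 higher, Fabp4 (0.81), against 0.822% of genes. The summed macrophage markers there were at 2239 and 1279 CPM. Plin2 was at 324 and 258 CPM in ILC2-like cells, under 1.5-fold. In NK cell-like cells 0 of 12 members were lower (0.635% of genes) and Abca1 was higher (0.544% of genes), at 42.9 and 72.1 CPM. This was 6.88% and 11.9% of its macrophage-like level, above the highest macrophage marker (10.4% and 11.1%) in ABX only. The part of carried-over macrophage RNA in this call was not tested. In B cell-like cells 0 of 16 members were lower (2.36% of genes) and 2 higher (0.822% of genes), Fabp4 (log2 1.26) and Scd2 (log2 0.67, from 44 and 177 UMIs). The part of carried-over endothelial RNA in the Fabp4 calls of T cell-like, ILC2-like and B cell-like cells was not tested.

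**Figure D5:**
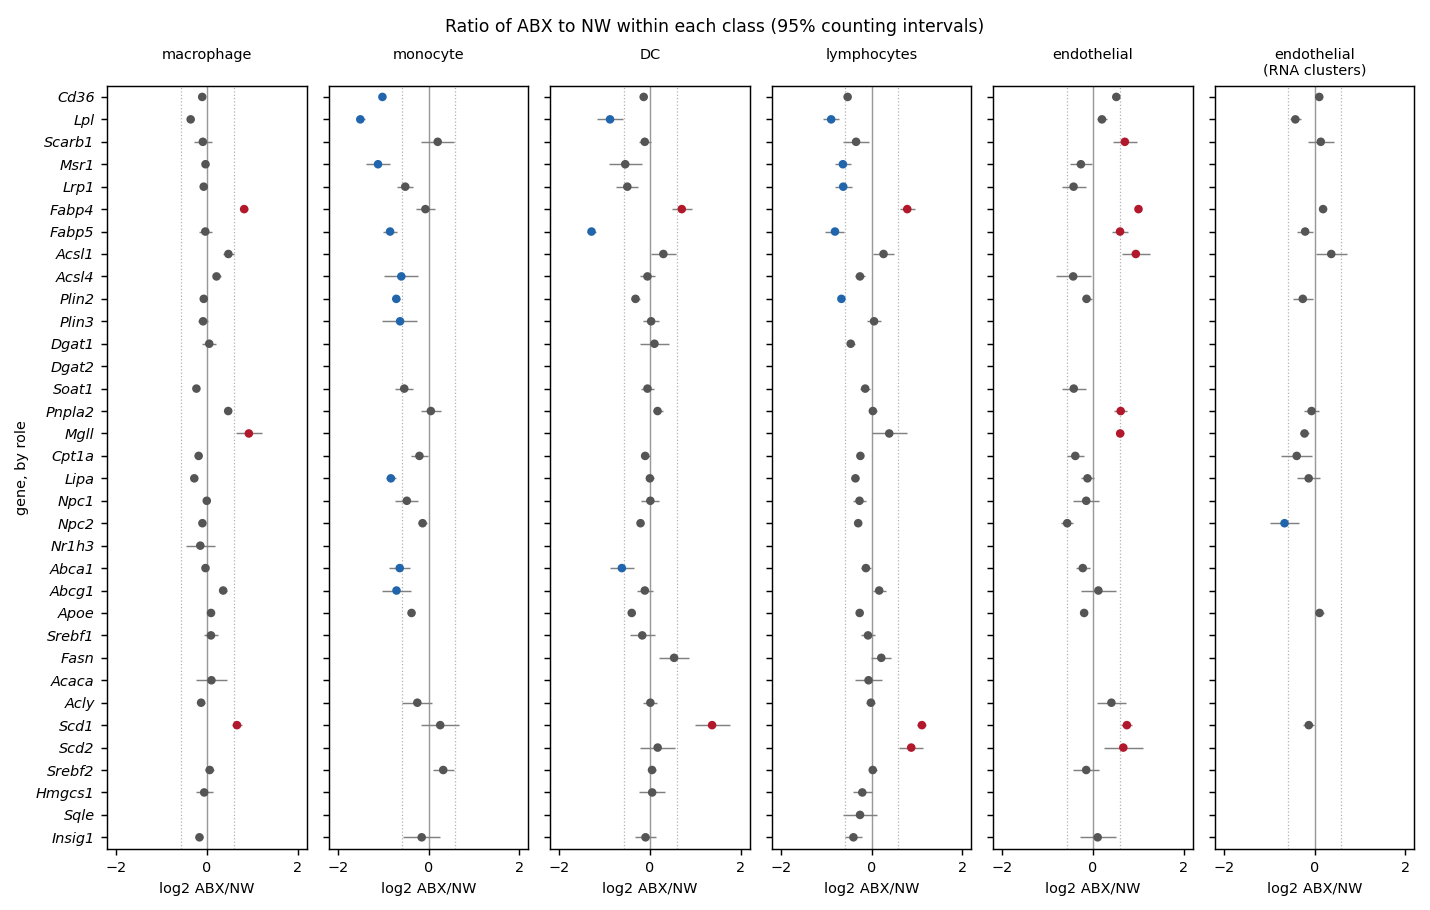
Log2 ratio of ABX to NW for each counted lipid gene in each cell class, with 95% counting intervals and lines at 1.5-fold. Macrophage-like values lie near 0 apart from Fabp4, Mgll and Scd1, and monocyte-like values lie mostly below 0.

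Endothelial-like cells gave the largest number of members higher in ABX, 8 of 25 (8.98% of genes), and 0 lower (4.42% of genes). Fabp4 was at 5639 CPM in NW and 11282 CPM in ABX (log2 1.00, 0.97 to 1.03), and Mgll at 751 and 1136 CPM (log2 0.60). Acsl1 (log2 0.94), Scd1 (0.74), Scarb1 (0.70), Scd2 (0.67), Pnpla2 (0.61) and Fabp5 (0.59) were the others. The summed macrophage markers in this class were at 10388 CPM in NW and 6742 CPM in ABX and the endothelial markers at 1348 and 2795 CPM, so macrophage RNA made up more of the class in NW.
Clusters drawn on RNA alone kept 109 NW and 234 ABX endothelial-like cells, with macrophage markers at 2248 and 1900 CPM and endothelial markers at 4476 and 5279 CPM. In these 0 of 14 members were higher (3.39% of genes) and 1, Npc2, was lower (log2 -0.66; 2.94% of genes). Fabp4 was at 18832 CPM (18482 to 19188) and 21437 CPM (21188 to 21687), a log2 ratio of 0.19. Cd36 was at 11493 and 12338 CPM, Mgll at 2512 and 2153 CPM, Lpl at 1642 and 1223 CPM and Scd1 at 1338 and 1225 CPM, each above its level in macrophage-like cells.

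Other genes of the same pathways were counted in macrophage-like cells by the same rule. Of the uptake list 5 of 8 genes could be counted and 1 was lower in ABX, the scavenger receptor gene Marco, at 5.17 CPM in NW and 2.10 CPM in ABX (log2 -1.30, -1.79 to -0.83, from 184 and 48 UMIs). Of the storage list 7 of 12 were counted, of lipolysis and oxidation 9 of 9, of efflux and nuclear receptors 8 of 10, of fatty acid synthesis 3 of 8 and of sterol synthesis 12 of 15, and 0 of these were past 1.5-fold. Pparg, the fatty acid receptor that directs lipid storage, was at 18.7 and 19.9 CPM, and Pltp, which transfers phospholipid between lipoproteins, at 2549 and 1836 CPM (log2 -0.47).
Hilpda, which blocks lipolysis at the droplet, was lower in monocyte-like cells, at 94.7 and 52.5 CPM (log2 -0.85), and in lymphocyte-like cells, at 338 and 213 CPM (log2 -0.67), and Plin2 was lower in both of these classes. Hilpda in macrophage-like cells was at 28.1 and 26.2 CPM. Pltp was lower in lymphocyte-like cells by log2 -0.82 and in DC-like cells by log2 -0.92.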

How the data were processed

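Single-cell RNA and surface-antibody libraries of VAT cells were analysed, 1 from NW and 1 from ABX mice, loaded together on 1 cartridge per the labels. The authors deposited raw UMI counts per cell, error-corrected by the sequencing pipeline and not normalized, as a table per library. Per the labels, reads were mapped to mm10 and R 3.6.0 and Seurat 3.0.1 were used; aligner settings were not given in the sources used here. Neither cell names nor cell types were taken from the study, so classes are rebuilt and may differ from its own.

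Cells with at least 500 gene UMIs, at least 200 genes and at most 25% mitochondrial UMIs were kept, 12474 of 17662 barcodes in NW and 12724 of 17785 in ABX, with 75214427 and 60770758 gene UMIs. In Seurat 5.3.0 (R 4.3.3) the 35 genes were removed before 2000 variable genes were chosen, and 30 principal components were joined with 8 antibodies by weighted nearest neighbours and clustered at resolution 0.6. Clusters were named from marker lists (at least 3 markers past 1.5-fold). A limit on names that go against a cluster's leading genes was set after the clusters had been seen. Macrophage-like and monocyte-like cells were re-clustered on RNA alone, and clusters without a fitting list carry their leading genes. The Cd209c Flt3 cluster matched the cDC2 list but is also named from its leading genes. Doublets predicted by Scrublet (scanpy 1.11.5; 2.94% of NW and 1.09% of ABX cells) were kept, and were left out as an alternative. Carried-over RNA was not subtracted.

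UMIs were summed per class and library as CPM, with exact Poisson intervals. Ratios carry exact Clopper-Pearson intervals of a ratio of Poisson rates, and shares of cells exact binomial intervals, all at 95% and covering counting error only. Shares were also computed with each cell thinned to 1000 UMIs, which leaves out shallower cells. A count of 0 allows up to 3 counts. Genes were counted where NW and ABX together gave 200 UMIs or more, in classes with at least 50 cells per library, and called past 1.5-fold between libraries or past 2-fold between states in both. All members are accounted for. Values per library are given for those with at least 200 UMIs in macrophage-like cells, and by class for those past 1.5-fold; companion genes are named where past 1.5-fold in macrophage-like cells, and Pparg, Pltp and Hilpda were chosen after their values were seen. The ratio step was tested on simulated data. Members, lists and alternatives were chosen with earlier results of these data known. Alternatives were TMM scaling (edgeR 4.0.16, scaling only), means over cells, stricter cell filters, no filter on low genes, a 2-fold threshold, other clusterings and class rules, state weighting, and 4 further ones added after seeing the data. Coordinates are GENCODE M21 (GRCm38, the same assembly as mm10).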

Additional observations from a re-analysis of the deposited data

Results flagged for a closer look

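Several lipid genes stood past 1.5-fold between ABX and NW in opposite directions in different cell classes. Fabp5 had a log2 ratio of 0.59 in endothelial-like cells, -0.60 in mature DC-like cells and -0.85 in monocyte-like cells. Its endothelial-like value changed sign to -0.21 with clusters on RNA alone, -0.12 with the lipid genes kept in clustering and -0.63 with classes from marker scores, and its monocyte-like value to 0.10 with states weighted as in NW and 0.55 with marker scores. Abca1 had one of 0.75 in NK cell-like cells, -0.77 in cDC1-like cells and -0.64 in monocyte-like cells, the last at -0.42 with states weighted as in NW. In NK cell-like cells Abca1 was above the macrophage marker range in ABX only. Apoe had a log2 ratio of 1.01 in neutrophil-like cells, from 174 and 277 UMIs, and -0.67 in mature DC-like cells. Its levels were 1254 and 2529 CPM in neutrophil-like and 843 and 528 CPM in mature DC-like cells. In macrophage-like cells it was at 11374 and 12079 CPM. The part of carried-over macrophage RNA in these Apoe values was not tested. With 1 library per condition, these differences between classes were not tested.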

How the results depend on the processing

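No paired analysis was possible because each condition has 1 library, and for the same reason no replicate could be left out. Counts of members called between ABX and NW moved by over 1.5 times as follows. In endothelial-like cells 8 were higher, but 5 with TMM scaling, 2 with means over cells, 1 past 2-fold, 0 with the lipid genes kept in clustering, 0 on RNA alone and 2 with classes from marker scores; 0 were lower, but 1 with TMM, without predicted doublets, on RNA alone and with marker scores. In DC-like cells 2 were higher, but 1 with means over cells, past 2-fold, on RNA alone and with marker scores; 3 were lower, but 1 without doublets, past 2-fold and with the lipid genes kept. In lymphocyte-like cells 5 were lower, but 3 with means over cells and with the stricter filter, 1 without doublets, 0 past 2-fold, and 2 with the lipid genes kept and on RNA alone; 3 were higher, but 1 past 2-fold. In macrophage-like cells 0 were lower, but 1 with all genes of at least 1 UMI and on RNA alone; 3 were higher, but 6 with all genes and 0 past 2-fold. In monocyte-like cells 10 were lower, but 3 past 2-fold, with marker scores and with states weighted as in NW; 0 were higher, but 2 with all genes. Clustering on RNA alone left no monocyte-like class to compare. Calls between ABX and NW in single lymphocyte-like or DC-like classes, such as T cell-like or Treg-like cells, were not run under these alternatives. Members highest in endothelial-like cells numbered 3, and 6 with marker scores. The Hmox1 state had 5 members higher, but 3 at resolution 1.0 and 2 with the lipid genes kept, and no such state formed at resolution 0.3.

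Of 377 values of single members under these alternatives, 253 stayed within the counting interval of the value given, 109 moved beyond it and 15 changed sign. Abcg1 in monocyte-like cells was at 0.069 with means over cells, and Fabp5 there at 0.55 with marker scores and 0.10 with states weighted. In endothelial-like cells Scd2 was at -0.77 with the stricter filter, and with the lipid genes kept Scd2, Fabp5 and Mgll were at -0.68, -0.12 and -0.11. On RNA alone Scd2, Fabp5, Mgll, Pnpla2 and Scd1 were at -0.066, -0.21, -0.22, -0.068 and -0.13, and with marker scores Scd2, Fabp5 and Mgll at -0.65, -0.63 and -0.22. A higher threshold calls fewer and no filter more members by construction; the cause of the other changes was not tested. Depth limits values of small classes: in Treg-like cells 9 members and in mature DC-like cells 7 reached 200 UMIs.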
